A study of Mus musculus with 14 samples.

Results

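Amino acid transporters of 6 gene families (Slc1a, Slc3a, Slc7a, Slc36a, Slc38a and Slc43a) were followed through sorted mouse bone marrow cells of the early B lineage. The members were all genes whose symbol is 1 of these prefixes followed by a number. Of the 18193 genes that the arrays measured, 40 were members, read by 86 probe sets, and each gene was represented by its brightest probe set over all arrays. A member counted as on when its mean log2 signal was above 5 in at least 1 group of arrays, and 14 of the 40 were on. The series holds 14 Affymetrix arrays in 6 groups, all of C57Bl6 mice, adults of 8 to 12 weeks. The Pax5KO engrafted group (3 arrays) and the WT engrafted group (3 arrays) began as fetal liver cells of day 15 embryos, either lacking the transcription factor Pax5 or wild type, in both cases positive for a reporter of the surrogate light chain λ5. Those cells were put into sublethally irradiated wild type mice, and bone marrow cells positive for B220 and the reporter were sorted 4 weeks later. The other 4 groups have 2 arrays each and came from mice without a transplant: common lymphoid progenitors (CLP) sorted as Ly6D- or Ly6D+, ProB cells and PreB cells. The labels do not give the sort gates of these 4 groups beyond their names, nor how many mice were pooled for an array.

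Amino acid transporters bring amino acids across the plasma membrane or move them in and out of lysosomes. Slc3a2 encodes the heavy chain of CD98, a surface glycoprotein that carries no amino acid itself but brings the light chains of the Slc7 family, such as Slc7a5 for leucine and other large neutral amino acids, to the membrane. Slc1 and Slc38 carriers of glutamine and other small neutral amino acids supply exchangers of this kind with substrate. Cells short of amino acids translate the transcription factor ATF4, which raises several transporter genes as part of the integrated stress response, while leucine, arginine and glutamine keep the kinase complex mTORC1 active at the lysosome.

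The array values are log2 signals with a floor at 2.32. A group is called at the floor here if none of its arrays read more than 0.5 above that value. Signals of different probe sets are not compared with each other, since their scales differ. Ly6d, the marker that splits the CLP, read 3.31 in the group sorted as Ly6D- and 10.78 in the group sorted as Ly6D+. The 11 B lineage markers averaged 6.02 to 6.20 on the Ly6D- CLP arrays and 9.54 to 11.53 on all others. Pax5 read 7.57 to 7.95 on the Pax5KO arrays and 6.18 to 6.76 on the WT engrafted arrays. The deleted part of the gene is not given in the labels, so this does not test the genotype. Several arrays stood apart. The arrays without transplant are named by the numbers in their titles, where PreB has 2 and 3. Xist, made by cells of female origin, read 12.66 to 13.16 on the Pax5KO arrays, 12.68 on WT engrafted array 3 and 10.71 and 11.49 in ProB, and at most 2.73 on every other array. Between the engrafted groups without WT array 3, the sex of the cells and the genotype cannot be told apart. WT engrafted array 3 also differed from WT arrays 1 and 2 in the gap between 3' and 5' probe sets of Gapdh, at 5.44 against 2.605 and 3.02, and in the mean of the 15 granulocyte and monocyte markers, at 5.08 against 3.48 and 4.07. Pax5KO array 3 had a like Gapdh gap, at 5.79 against 3.90 and 3.17. The PreB arrays had the widest gap between 3' and 5' probe sets of actin, at 6.71 and 7.27 against 2.51 to 5.57 elsewhere. They also carried the granulocyte and monocyte markers, which averaged 7.04 and 7.34 against 2.86 and 2.88 in ProB, and 4.599 and 7.241 on the Ly6D- CLP arrays.

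Of the 14 transporters that were on, 10 had a mean above 5 in all 6 groups. They were Slc1a5, Slc3a2, Slc7a1, Slc7a6, Slc38a1, Slc38a2, Slc38a9, Slc38a10, Slc43a2 and Slc43a3. The other 4 were Slc1a4, Slc7a5, Slc36a4 and Slc38a6. PreB cells had all 14 above 5, Ly6D+ CLP 13, Ly6D- CLP, Pax5KO and WT engrafted cells 12 each, and ProB cells 11. By family, 5 of 9 Slc38a genes were on, 2 of 3 Slc43a, 2 of 7 Slc1a, 3 of 15 Slc7a, 1 of 4 Slc36a and 1 of 2 Slc3a. The share on was 35.0% of the members against 47.9% of all genes. Nearest above the threshold lay Slc38a6, with 6.69 in its highest group, and nearest below it lay Slc43a1 with 4.65, Slc38a7 with 4.62 and Slc7a7 with 4.17. With a threshold of 4, 17 would be on, and with 6, 14. PreB was the highest group for 6 of the 14, and ProB the lowest for 5.

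**Figure D1:**
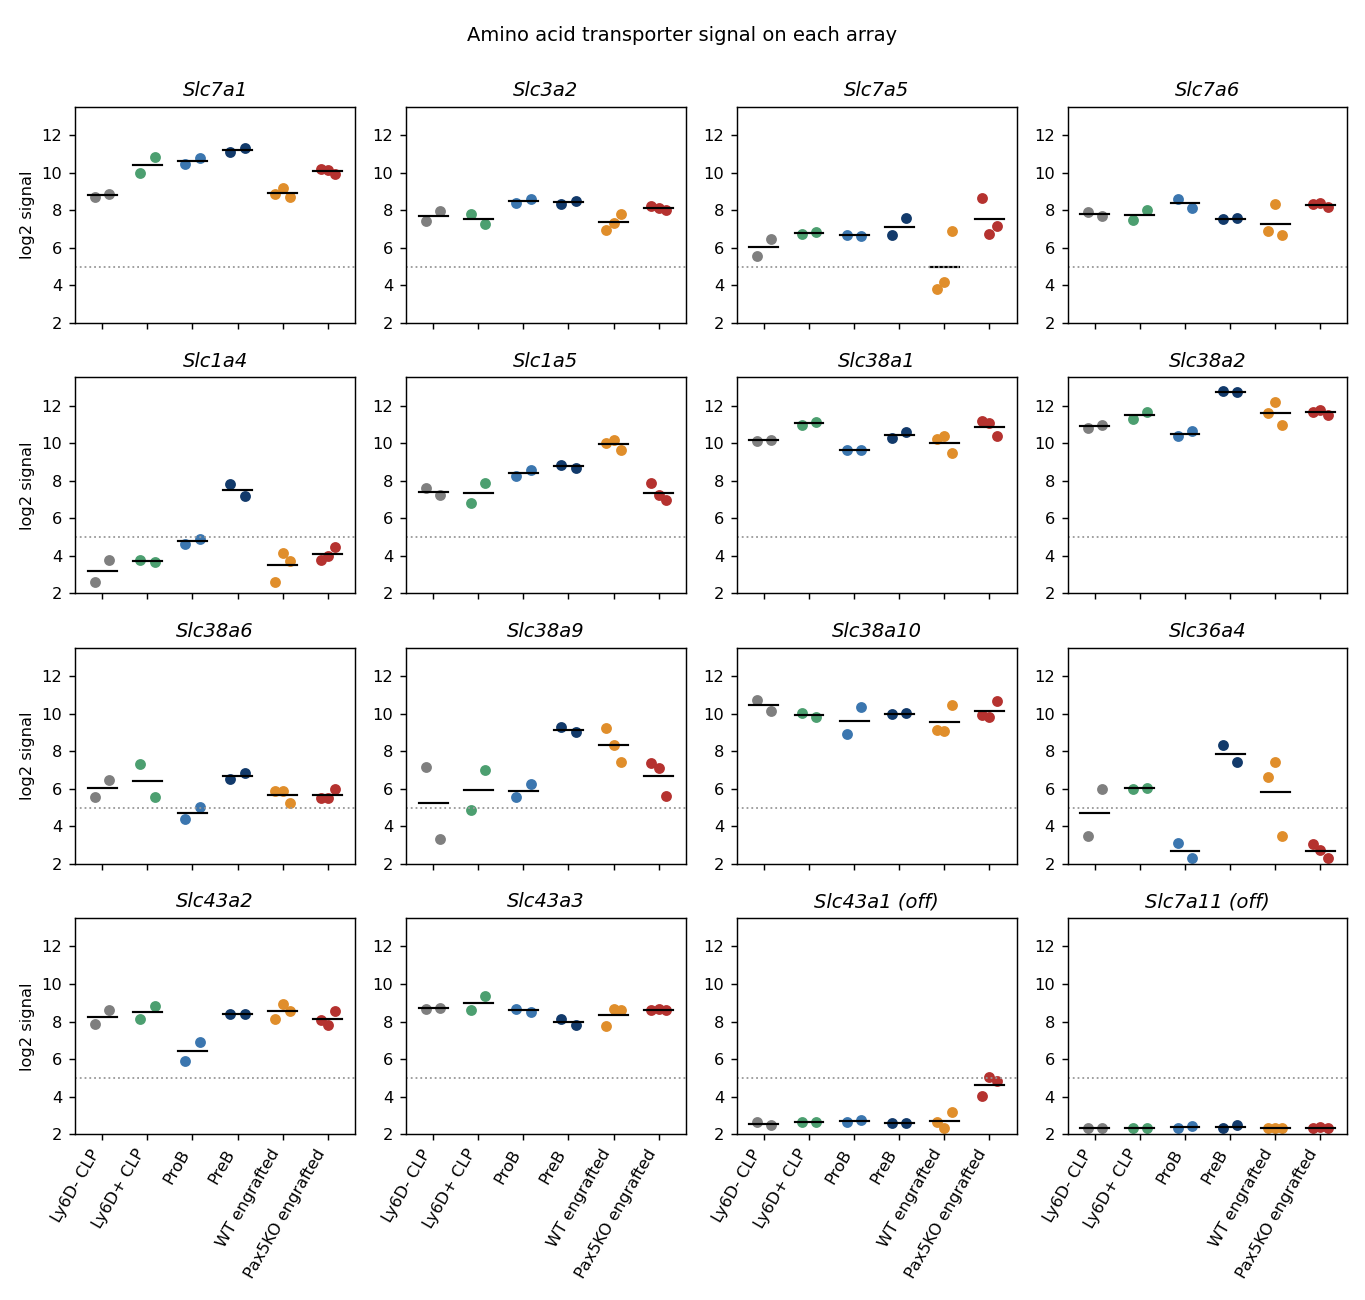
Log2 signal (vertical axis) of the 14 transporters that were on, and of Slc43a1 and Slc7a11, which were not, on each of the 14 arrays by group (horizontal axis). Dots are single arrays, bars are group means, and the dotted line marks 5. Slc1a4 stands above 7 on both PreB arrays and below 5 on all others, and Slc43a1 lies above 4 on the Pax5KO arrays and at or below 3.20 on all others.

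Differences were tested with limma over all genes, and a gene was called at an adjusted p under 0.05. Between Pax5KO and WT engrafted cells 3 of the 40 transporters were called, Slc43a1 and Slc7a1 higher and Slc1a5 lower in Pax5KO, against 5.94% of all genes called. Between Ly6D+ and Ly6D- CLP only Slc7a1 was called, higher in Ly6D+, where 1.45% of all genes were called. From Ly6D+ CLP to ProB, Slc43a2 and Slc38a1 were called lower, where 7.29% of all genes were called. After equal array medians that step had 1 transporter called higher and 2 lower, and after quantile normalization 1 and 1. All genes called were then 1458 and 1252. From ProB to PreB, 5 were called, all higher: Slc36a4, Slc1a4, Slc38a2, Slc43a2 and Slc7a3, where 11.5% of all genes were called. As shares of the 40 these counts are 7.5%, 2.5%, 5% and 12.5%, near the share of all genes in each comparison. An F test across the 6 groups called 10 transporters, 25% of them, against 21.4% of all genes. The median difference of the 40 lay at 0 in the first 3 comparisons and at 0.028 in the last, and that of all genes at 0 in each. The ProB arrays serve in both comparisons that involve ProB, and the Ly6D+ CLP arrays in both that involve Ly6D+ CLP. With 2 or 3 arrays a group, p-values rest on a spread between replicate arrays that is pooled over all 6 groups. That spread is also drawn toward the spread of all genes, so it is not that of the compared groups alone.

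**Figure D2:**
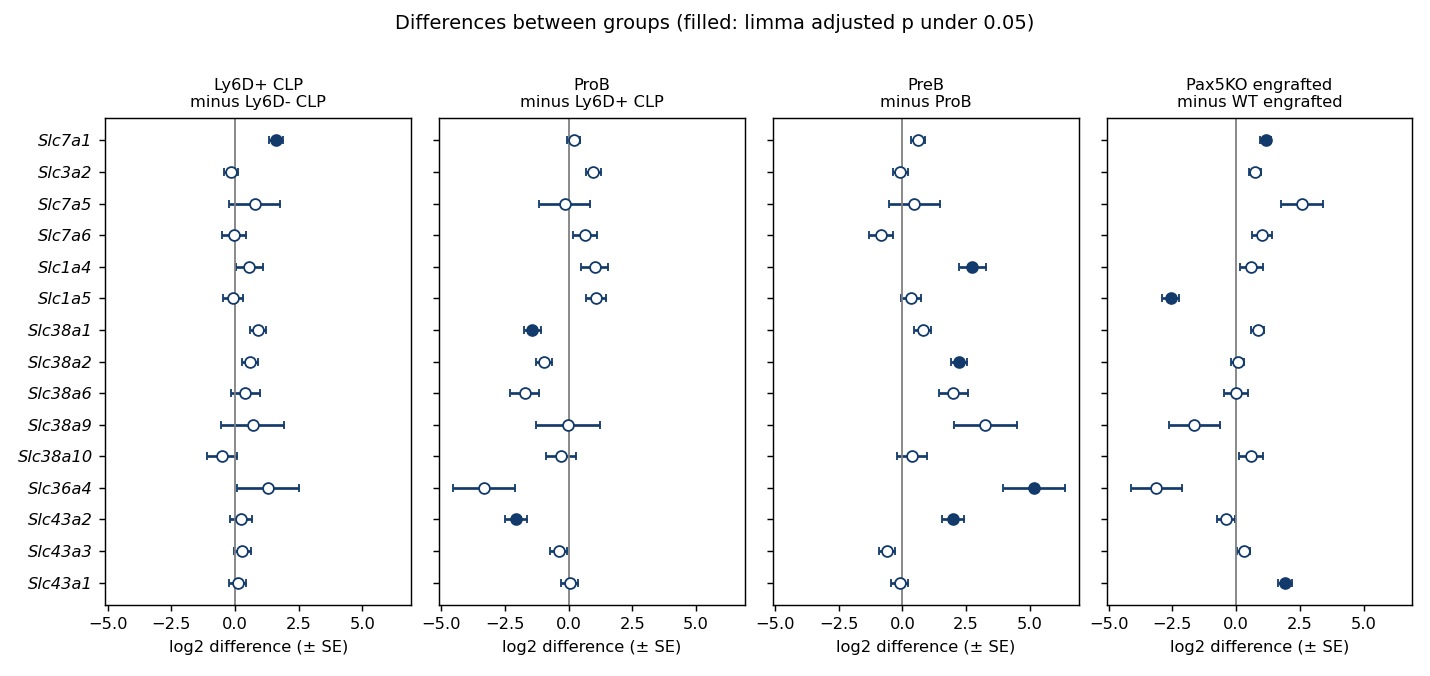
Log2 difference (horizontal axis) with its standard error for the 14 transporters that were on and for Slc43a1, in the 4 comparisons. Filled dots have a limma adjusted p under 0.05 over all genes. Slc1a5 lies at -2.57 between Pax5KO and WT engrafted cells, and 4 filled dots lie to the right of 0 from ProB to PreB.

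The heavy chain Slc3a2 was on in every group, with group means from 7.38 to 8.51. It read 6.96, 7.34 and 7.83 on the WT engrafted arrays and 8.22, 8.11 and 8.01 on the Pax5KO arrays. The Ly6D- CLP arrays read 7.45 and 7.94, Ly6D+ CLP 7.80 and 7.28, ProB 8.41 and 8.60, and PreB 8.35 and 8.51. All Pax5KO arrays stood above all WT engrafted arrays, and both ProB and both PreB arrays above every CLP array. The F test called it (adjusted p = 0.0459), but none of the 4 comparisons did: Pax5KO minus WT was 0.73 (SE 0.23, adjusted p = 0.132) and ProB minus Ly6D+ CLP was 0.97 (SE 0.28, adjusted p = 0.0875). Without WT engrafted array 3, which differed from the other WT arrays as given above, the first difference was 0.96 with an adjusted p of 0.0377. That array also read nearest to the Pax5KO arrays, so this fit alone does not settle the difference.

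Slc7a5, the leucine-carrying light chain known as LAT1, varied most among replicates of the CD98 partners. Its 3 WT engrafted arrays read 3.79, 4.21 and 6.89 and the Pax5KO arrays 8.67, 6.76 and 7.17. The Ly6D- CLP arrays read 5.56 and 6.50, Ly6D+ CLP 6.77 and 6.85, ProB 6.70 and 6.63, and PreB 6.68 and 7.58. WT engrafted arrays 1 and 2 were the lowest of the series, while array 3 lay among the Pax5KO values, so the engrafted groups overlapped. Pax5KO minus WT was 2.57 (SE 0.82, adjusted p = 0.135), and without WT engrafted array 3 it was 3.54 (adjusted p = 0.012). As array 3 was the WT array nearest to Pax5KO, leaving it out widens the difference by itself. The gene was not called across the 6 groups (adjusted p = 0.322).

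Slc7a6, a light chain that exchanges cationic for neutral amino acids, was called in no comparison. It read 8.35, 8.39 and 8.19 on the Pax5KO arrays and 6.88, 8.34 and 6.68 on the WT engrafted arrays. ProB read 8.63 and 8.14, PreB 7.51 and 7.57, Ly6D- CLP 7.89 and 7.69, and Ly6D+ CLP 7.48 and 8.03. WT engrafted array 2 lay among the Pax5KO values, and the other 2 WT arrays were the lowest of all. Pax5KO minus WT was 1.01 (SE 0.39, adjusted p = 0.238), and without WT engrafted array 2 it was 1.53 with an adjusted p of 0.0046. Array 2 is singled out here by its Slc7a6 value, so the fit without it does not test the difference. Slc7a11, the cystine-carrying partner of CD98 and a well-known target of ATF4, stayed between 2.32 and 2.48 on all 14 arrays, at the floor in every group. Slc7a7 and Slc7a8, also known to pair with Slc3a2, were off.

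Slc7a1 (CAT-1) takes up arginine and lysine without a heavy chain and had the smallest F test p of all members (adjusted p = 0.00107). Ly6D- CLP read 8.73 and 8.88, and Ly6D+ CLP 9.98 and 10.85. ProB read 10.44 and 10.78, and PreB 11.13 and 11.32. The WT engrafted arrays read 8.89, 9.20 and 8.71 and the Pax5KO arrays 10.20, 10.13 and 9.95. Ly6D- CLP and WT engrafted cells formed the low end, with every one of their 5 arrays below every array of the other 4 groups. Slc7a1 rose from Ly6D- to Ly6D+ CLP by 1.61 (SE 0.27, adjusted p = 0.0244), with 1 of its 3 probe sets called. It was higher in Pax5KO than in WT engrafted cells by 1.16 (SE 0.22, adjusted p = 0.0159), with 2 of 3 probe sets called. The steps from Ly6D+ CLP to ProB (0.19) and from ProB to PreB (0.62, SE 0.27, adjusted p = 0.227) were not called.

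The calls on Slc7a1 depend on single arrays and settings. Between the engrafted groups the adjusted p was 0.0676 without Pax5KO array 1, 0.0603 without Pax5KO array 2, 0.0616 without WT array 1, 0.0531 without WT array 3 and 0.0513 with a term for arrays of high Xist, where the difference was 1.38. Between the CLP groups the adjusted p was 0.867 with only those 2 groups in the fit and 0.191 with array weights. The lymphoid progenitor markers also differed between the engrafted groups: their 8 genes averaged 8.46 to 9.22 on the Pax5KO arrays and 6.41 to 6.94 on the WT arrays. Between the CLP groups, 3 of the 15 granulocyte and monocyte markers were at the floor in Ly6D- and 9 in Ly6D+, with array means of 4.599 and 7.241 against 3.74 and 4.22. The part of either list in the differences of Slc7a1 was not tested. In bulk samples, fewer cells of a type and less RNA per cell cannot be told apart. Of the other cationic carriers, Slc7a2 was off and Slc7a3 read 2.64 and 2.82 in PreB and 2.32 on both ProB arrays. That step was called at 0.41 (SE 0.09, adjusted p = 0.0181), a lower bound because ProB was at the floor, yet Slc7a3 was off by the threshold of 5 and the call ended in 7 of 11 alternatives.

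Slc1a5 (ASCT2), a sodium-dependent exchanger of glutamine and other neutral amino acids, separated the engrafted groups most firmly. It read 10.02, 10.17 and 9.63 on the WT engrafted arrays and 7.89, 7.23 and 6.98 on the Pax5KO arrays. Ly6D- CLP read 7.60 and 7.25, Ly6D+ CLP 6.83 and 7.87, ProB 8.25 and 8.59, and PreB 8.85 and 8.67. The 3 WT engrafted arrays were the highest of the series, and the Pax5KO arrays lay within or near the range of the CLP arrays. Slc1a5 was lower in Pax5KO (log2 difference -2.57, SE 0.32, adjusted p = 0.00184), and both of its probe sets were called. This call held in all 16 alternatives run, with differences from -2.84 to -2.26 and adjusted p up to 0.0305, including those without WT engrafted array 3 and with a term for high Xist. The term for high Xist rests on WT engrafted array 3, the only WT engrafted array where Xist was high. Without that array sex and genotype cannot be told apart. ProB minus Ly6D+ CLP was 1.07 (SE 0.39, adjusted p = 0.17), with adjusted p of 0.0246 after equal array medians and 0.0395 after quantile normalization. From ProB to PreB it was 0.34 (SE 0.39, adjusted p = 0.769), while the dimmer probe set gave 2.42 and was called.

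Slc1a4 (ASCT1), its relative that carries alanine, serine and cysteine, was on in PreB cells alone. It read 7.84 and 7.20 in PreB and 4.64 and 4.89 in ProB. Ly6D- CLP read 2.61 and 3.76, Ly6D+ CLP 3.79 and 3.69, WT engrafted cells 2.60, 4.14 and 3.75, and Pax5KO cells 3.79, 4.00 and 4.49. Both PreB arrays lay above all others, and both ProB arrays above the remaining 10. Slc1a4 rose from ProB to PreB by 2.75 (SE 0.53, adjusted p = 0.0123), on 1 of its 3 probe sets, the other 2 being at the floor. The adjusted p was 0.0684 without PreB array 2 and 0.0922 with only those 2 groups in the fit. Between Pax5KO and WT engrafted cells it differed by 0.60, with an adjusted p of 0.706.

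The promoter of Slc1a4 is shown because, of the transporters that were on and had a promoter in the table, it alone held the amino acid response motif. The motif searched was TGATGNAA, on both strands, in windows from 250 bases before to 50 bases after the start of transcription (RefSeq, GRCm38.p6). Promoters were found for 10 of the 14 transporters on and for 29 of the 40 measured. The motif was in 1 of those 10 genes and in 3 of the 29 (Slc1a4, Slc7a7 and Slc7a11). A gene can have several promoters and counts if any of them holds the motif. Counted by promoter, it was in 1 of 13 for the transporters on (7.69%), against 3.97% of all 32851 promoters of this length. Slc7a11 is printed beside it for its pair of matches. The Slc1a4 window is chr11:20332664-20332963, minus strand, and that of Slc7a11 is chr3:50443564-50443863, minus strand. Both are written 5′ to 3′ along the gene with the matches in capitals.
Slc1a4: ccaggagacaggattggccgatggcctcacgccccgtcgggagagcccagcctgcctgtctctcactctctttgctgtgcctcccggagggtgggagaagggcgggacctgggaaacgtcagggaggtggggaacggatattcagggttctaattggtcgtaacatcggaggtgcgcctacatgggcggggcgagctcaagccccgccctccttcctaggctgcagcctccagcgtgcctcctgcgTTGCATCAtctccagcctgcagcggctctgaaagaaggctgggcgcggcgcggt
Slc7a11: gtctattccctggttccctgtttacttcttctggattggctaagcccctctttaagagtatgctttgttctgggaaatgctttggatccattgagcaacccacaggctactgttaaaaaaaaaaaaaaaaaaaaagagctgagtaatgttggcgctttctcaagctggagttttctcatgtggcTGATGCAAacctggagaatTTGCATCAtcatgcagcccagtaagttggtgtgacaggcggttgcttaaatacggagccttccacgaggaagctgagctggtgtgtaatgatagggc
In Slc1a4 the match begins at -4 relative to the start, on the other strand, and in Slc7a11 the matches begin at -66 and -47. Both genes carry the letters, while Slc1a4 rose in PreB and Slc7a11 stayed at the floor there. A match describes the letters and is not a site shown to be bound. A second motif, CACGTG, chosen after the data were seen, was in none of the 10 genes and in 7 of the 29. Counted by promoter, it was in none of the 13 of transporters on, against 7.15% of all promoters. For neither motif was the share of all genes counted by gene, so the counts among 10 and 29 genes have no like share beside them.

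Slc38a2 (SNAT2), a sodium-coupled carrier of alanine, glutamine and other neutral amino acids whose transcript is known to rise when cells lack amino acids, gave the firmest change between stages. It read 12.76 and 12.71 in PreB and 10.39 and 10.63 in ProB. Ly6D- CLP read 10.79 and 10.99 and Ly6D+ CLP 11.29 and 11.66. The WT engrafted arrays read 11.58, 12.21 and 10.98 and the Pax5KO arrays 11.69, 11.76 and 11.50. PreB was the highest and ProB the lowest group, and neither overlapped any other. Slc38a2 rose from ProB to PreB by 2.22 (SE 0.33, adjusted p = 0.0035), with 2 of 3 probe sets called. The call held in all 12 alternatives, with differences from 2.02 to 2.34 and adjusted p up to 0.0447. ProB minus Ly6D+ CLP was -0.96 (SE 0.33, adjusted p = 0.14), and between the engrafted groups it was 0.05.

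Slc38a1 (SNAT1), a glutamine carrier of the same family, had group means from 9.63 to 11.06. Ly6D+ CLP read 10.98 and 11.14, ProB 9.63 and 9.64, and PreB 10.27 and 10.58. Ly6D- CLP read 10.14 and 10.16, Pax5KO cells 11.18, 11.06 and 10.41, and WT engrafted cells 10.24, 10.39 and 9.47. ProB and WT engrafted array 3 were the low end, and Ly6D+ CLP and Pax5KO arrays 1 and 2 the high end. Slc38a1 fell by 1.43 from Ly6D+ CLP to ProB (SE 0.32, adjusted p = 0.0328), but its dimmer probe set gave 0.69, the opposite sign, and the mean of both gave -0.37 (adjusted p = 0.229). Leaving out any 1 of the 4 arrays also ended that call, at adjusted p between 0.0661 and 0.116. Pax5KO minus WT was 0.85 (SE 0.26, adjusted p = 0.127), and with the array number as a block it was called (adjusted p = 0.00555).

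The remaining Slc38a genes that were on are described by group means. Slc38a9, a lysosomal carrier that signals arginine to mTORC1, averaged 9.15 ± 0.17 (SD, n = 2) in PreB and 8.33 ± 0.92 (SD, n = 3) in WT engrafted cells. Its means elsewhere were 6.70 ± 0.95 (SD, n = 3) in Pax5KO, 5.94 ± 1.49 (SD, n = 2) in Ly6D+ CLP, 5.90 ± 0.48 (SD, n = 2) in ProB and 5.24 ± 2.71 (SD, n = 2) in Ly6D- CLP. The CLP replicates were far apart, and every PreB and WT engrafted array lay above both ProB arrays. PreB minus ProB was 3.25 (SE 1.25, adjusted p = 0.158), not called on the brightest probe set although 3 of its 7 probe sets were called, and the mean of the 7 gave 1.74 (adjusted p = 0.03). Pax5KO minus WT was -1.64 (SE 1.02, adjusted p = 0.622), and the mean of the probe sets gave -1.46 (adjusted p = 0.0408). All 7 probe sets were lower in Pax5KO, and 1 was called (-2.42, limma adjusted p = 0.000698). From Ly6D+ CLP to ProB the brightest probe set differed by -0.04, and 1 of the 7 was called (-1.94, limma adjusted p = 0.0071).

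Slc38a6 averaged 6.69 ± 0.23 (SD, n = 2) in PreB, 6.42 ± 1.24 (SD, n = 2) in Ly6D+ CLP, 6.02 ± 0.66 (SD, n = 2) in Ly6D- CLP and 5.68 in both engrafted groups (SD 0.29 in Pax5KO and 0.37 in WT, n = 3 each). In ProB it averaged 4.69 ± 0.46 (SD, n = 2), the one group mean below 5. PreB minus ProB was 2.002 (SE 0.56), just short of the threshold at an adjusted p of 0.0543, and passed it without dim genes (0.0157), after equal array medians (0.044) and with array weights (0.0399). Slc38a10 had group means between 9.55 and 10.43, and its F test gave an adjusted p of 0.772 on this probe set. Of its 7 probe sets 1 was called, from ProB to PreB (0.37, with ProB at the floor), and another read -3.21 from Ly6D+ CLP to ProB, not called (adjusted p = 0.0523).

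Slc36a4 (PAT4), a carrier of proline and tryptophan, had the widest span of any member. It read 8.31 and 7.41 in PreB and 3.09 and 2.32 in ProB. The CLP arrays read 3.49 and 5.96 in Ly6D- and 6.003 and 6.042 in Ly6D+. The WT engrafted arrays read 6.64, 7.43 and 3.49 and the Pax5KO arrays 3.06, 2.75 and 2.32. ProB and Pax5KO cells were near the floor on all 5 arrays, below every other array. Slc36a4 rose from ProB to PreB by 5.15 (SE 1.22, adjusted p = 0.0283) on its single probe set. Leaving out any 1 of those 4 arrays ended the call, at adjusted p between 0.0575 and 0.136. Pax5KO minus WT was -3.14 (SE 0.998, adjusted p = 0.135), and without WT engrafted array 3 it was -4.33 (adjusted p = 0.0115). Here too array 3 was the WT array nearest to Pax5KO, so leaving it out widens the difference by itself. ProB minus Ly6D+ CLP was -3.32 (SE 1.22, adjusted p = 0.179).

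Slc43a2 (LAT4), which carries large neutral amino acids such as leucine and phenylalanine without a heavy chain, dipped in ProB alone. It read 5.93 and 6.92 there, against 8.15 and 8.82 in Ly6D+ CLP and 8.42 and 8.41 in PreB. Ly6D- CLP read 7.89 and 8.63, Pax5KO cells 8.09, 7.81 and 8.54 and WT engrafted cells 8.15, 8.94 and 8.57. Both ProB arrays lay below the other 12, which overlapped one another. Slc43a2 fell by 2.06 from Ly6D+ CLP to ProB (SE 0.43, adjusted p = 0.0232) and rose from ProB to PreB by 1.99 (SE 0.43, adjusted p = 0.0196), both on the same ProB arrays, with 1 and 2 of its 3 probe sets called. Without ProB array 1 neither was called: the fall was -1.56 (adjusted p = 0.0819) and the rise had an adjusted p of 0.0791. The call of the fall also ended without Ly6D+ CLP array 2 (adjusted p = 0.103), and that of the rise without PreB array 2 (0.0759) or PreB array 3 (0.0779).

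Slc43a1 (LAT3), its relative for branched-chain amino acids and phenylalanine, lay below the threshold of 5 in every group and was still called between the engrafted groups. It read 4.05, 5.06 and 4.85 on the Pax5KO arrays and 2.67, 2.32 and 3.20 on the WT engrafted arrays. The 8 arrays of cells without transplant read between 2.47 and 2.74. Every Pax5KO array lay above every other array of the series. Slc43a1 was higher in Pax5KO than in WT engrafted cells by 1.92 (SE 0.28, adjusted p = 0.00428), and with a term for high Xist by 1.45 (adjusted p = 0.06). With only the 2 engrafted groups in the fit the adjusted p was 0.0944. Slc43a3, a member of the family known for carrying purine nucleobases rather than amino acids, had group means between 7.99 in PreB and 8.99 in Ly6D+ CLP and was called in no test (F test adjusted p = 0.317).

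The rises from ProB to PreB go along with other differences between those arrays. Xist was high in ProB and at the floor in PreB, so the sex of the cells and the stage cannot be told apart. The gap between 3' and 5' probe sets was 2.73 and 3.67 for actin in ProB against 6.71 and 7.27 in PreB, and 2.40 and 3.32 against 4.35 and 4.88 for Gapdh. Of the 15 granulocyte and monocyte markers, 10 were at the floor in ProB and 3 in PreB. In PreB, S100a8 averaged 12.44 and Ngp 11.44 (3.24 and 2.53 in ProB), while Itgam, Csf3r and Elane were at the floor. The 7 markers of NK and innate lymphoid cells averaged 5.34 and 5.60 in PreB against 2.56 and 2.68 in ProB, with Gzma at 10.63 and Ncr1, Il2rb and Klrk1 at the floor. The 8 dendritic markers averaged 6.95 and 7.09 in PreB against 5.45 and 5.64 in ProB. The 7 plasma cell markers averaged 9.44 and 9.75 in ProB against 9.72 and 8.08 in PreB. Of these, Igha averaged 11.93 in ProB against 5.74 in PreB, and Jchain 12.11 against 5.61. Sdc1, Prdm1, Xbp1, Irf4 and Ighm were higher in PreB. The part of these differences in the transporter values, and in the gene lists below, was not tested. Ly6D+ CLP differs from ProB in Xist and in the plasma cell markers too, so the falls of Slc43a2 and Slc38a1 share those limits. The plasma cell markers averaged 9.44 and 9.75 in ProB against 6.64 and 6.11 in Ly6D+ CLP. Igha read 11.93 against 3.38 and Jchain 12.11 against 2.57, while Sdc1 was lower in ProB, at 8.29 against 9.56. Their part in the falls was not tested.

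**Figure D3:**
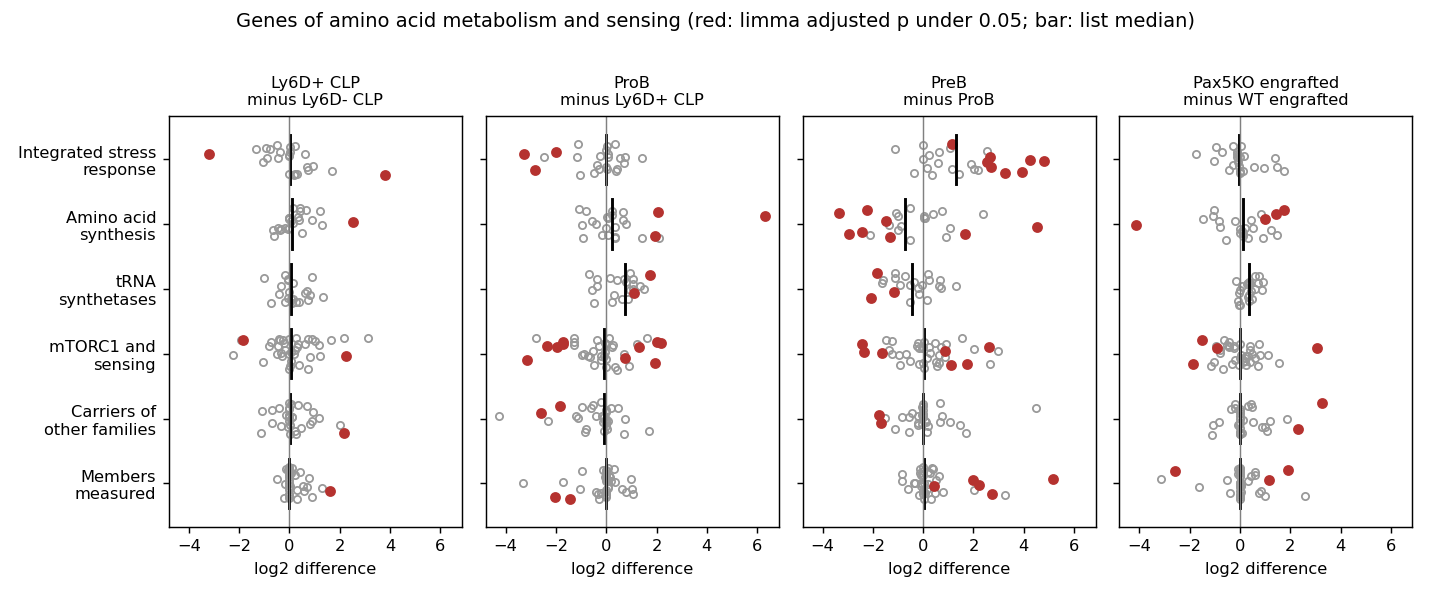
Log2 difference (horizontal axis) of each measured gene of 5 pathway lists and of the 40 transporters (vertical axis), in the 4 comparisons. Red dots have a limma adjusted p under 0.05, and black bars are list medians. From ProB to PreB the integrated stress response list has 8 red dots to the right of 0 and none to the left, with its median at 1.293.

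Genes that sense or replace amino acids were read beside the transporters from 5 lists. Of 24 measured genes of the integrated stress response, 8 were called from ProB to PreB, all higher (33.3%, against 11.5% of all genes), with a median of 1.293. Only 47.9% of all genes were on, so the share of all genes includes many near the floor. In a fit of the 8713 genes that were on, 2522 were called in this step and 1686 from Ly6D+ CLP to ProB. The list shares here and below were not set against that fit. The differences of the ProB and PreB arrays in Xist, 3' to 5' gaps and markers of other cells, given above, apply here too. With only these 2 groups in the fit 3 were called, against 487 of all genes. The 8 called in the fit of all groups include Atf4, the transcription factor at the centre of the response. It read 13.92 in PreB and 11.22 in ProB (difference 2.70, SE 0.52, adjusted p = 0.0119). Ddit4, an inhibitor of mTORC1, rose by 4.81 (SE 0.36), Ddit3, the factor CHOP, by 3.91 (SE 0.46), and Jdp2 by 3.24. Atf3 rose by at least 4.24, since ProB was at the floor. The same list had no call by limma between the engrafted groups (5 genes at an unadjusted p under 0.05), where Atf4 differed by -0.72 (adjusted p = 0.578). From Ly6D+ CLP to ProB it had 3 calls, all lower, in Trib3 (-3.28), Cebpb (-2.82, a bound since ProB was at the floor) and Cdkn1a (-1.98). Between the CLP groups it had 2 calls, Cdkn1a (3.80) and Vldlr (-3.19, with Ly6D+ at the floor). These 3 and 2 calls are 12.5% and 8.33% of the list, against 7.29% and 1.45% of all genes.

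Of 24 measured enzymes that make amino acids and folate-bound carbon units, 6 were called lower and 2 higher from ProB to PreB (33.3%, against 11.5% of all genes), with a median of -0.705. Mthfd1 of the folate cycle fell by 2.96, Psph of serine synthesis fell by 2.45, Mthfd1l fell by 2.25 and Pycr3 of proline synthesis, listed as Pycrl, fell by 3.35, while the transaminase Gpt2 rose by 4.54. From Ly6D+ CLP to ProB 3 were called higher, with Psat1 at 2.04, Mthfd2 at 1.94 and the branched-chain transaminase Bcat1 at 6.33 or more. Between the engrafted groups 3 were called higher in Pax5KO (Shmt2 at 1.74, Phgdh at 1.43 and Mthfd1 at 0.99), and Bcat1 was lower (-4.13, a bound since Pax5KO was at the floor). Between the CLP groups only Mthfd2 was called, higher in Ly6D+ by 2.53. Of the enzymes 12.5% were called from Ly6D+ CLP to ProB, 16.7% between the engrafted and 4.17% between the CLP groups. Of all genes these shares were 7.29%, 5.94% and 1.45%. Of the 22 cytosolic tRNA synthetases and their partners, limma called none between the engrafted groups or between the CLP groups (4 and 2 at an unadjusted p under 0.05). Tars (1.74) and Yars (1.12) were higher in ProB than in Ly6D+ CLP, and Kars (-2.09), Aimp2 (-1.82) and Wars (-1.16) lower in PreB than in ProB. These calls are 9.09% and 13.6% of that list, against 7.29% and 11.5% of all genes.

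Among 39 measured genes of mTORC1 and its amino acid sensors, calls ran in both directions in every comparison. The shares called were 10.3% between the engrafted groups and 5.13% between the CLP groups, against 5.94% and 1.45% of all genes. They were 25.6% against 7.29% from Ly6D+ CLP to ProB and 17.9% against 11.5% from ProB to PreB. From Ly6D+ CLP to ProB 5 were higher and 5 lower. Sesn1, a relative of the leucine sensor Sesn2, fell by 2.34 in that step and rose by 1.76 from ProB to PreB, and Flcn, which acts on the Rag GTPases, rose by 2.63 in the later step. In all, 4 were higher and 3 lower from ProB to PreB. In Pax5KO against WT engrafted cells Fnip2 was higher by 3.06, while Tfeb (-1.87), Mtor itself (-1.52) and Lamtor3 (-0.90) were lower. Between the CLP groups Deptor was called higher in Ly6D+ (at least 2.25) and Mlst8 lower (-1.83).

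Of 32 measured amino acid and peptide carriers from other families, Slc16a10, an aromatic amino acid carrier, was called in 3 comparisons. It was higher in Pax5KO than in WT engrafted cells by 3.25 (SE 0.25, adjusted p = 0.000127) and higher in Ly6D+ than in Ly6D- CLP by 2.19, and fell by 2.59 from Ly6D+ CLP to ProB. Mfsd12, a lysosomal cysteine carrier, was higher in Pax5KO by 2.29. The mitochondrial carriers Slc25a12 (-1.83, from Ly6D+ CLP to ProB), Slc25a39 (-1.76) and Slc25a15 (-1.67, both from ProB to PreB) were the other calls in that list. Its shares called were 6.25%, 3.12%, 6.25% and 6.25% in the 4 comparisons, against 5.94%, 1.45%, 7.29% and 11.5% of all genes.

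Across the 6 group means, the pairs of transporters with the most alike patterns were Slc38a2 with Slc38a9 (Pearson r = 0.837), Slc38a6 with Slc43a2 (0.836), Slc36a4 with Slc38a6 (0.823) and Slc1a4 with Slc7a1 (0.805). Slc3a2 was most like Slc7a1 (0.738) and Slc1a4 (0.727), and its values with the light chains Slc7a5 and Slc7a6 were 0.662 and 0.589. These values describe 6 points that share their arrays, and no test was made of them.

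The other 26 transporters had no group mean above 5. Every array was at the floor for 15 of them, and 11 lay above it on at least 1 array. The glutamate carriers Slc1a1, Slc1a2, Slc1a3, Slc1a6 and Slc1a7 were off, as were Slc3a1 and its partner Slc7a9, which form the cystine carrier of kidney. Slc38a3, Slc38a4, Slc38a5 and Slc38a7 were off within the Slc38a family. Lysosomal Slc36a1 reached 3.50 in Ly6D+ CLP, and Slc36a2 and Slc36a3 were off too. The rest of the Slc7a family that was off comprised Slc7a2, Slc7a3, Slc7a4, Slc7a7, Slc7a8, Slc7a10, Slc7a11, Slc7a12, Slc7a13, Slc7a14 and Slc7a15. Slc7a7 read between 2.32 and 4.85 with no difference called. A signal at the floor is not well above the lowest value of the array and does not show that a transcript is absent.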

How the data were processed

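The authors deposited 1 table of log2 signals with 45101 probe sets and 1 value for each on every array. RMA, GCRMA and limma were used per the submitters' processing notes. Which of them made the table is not given in the sources used here. Per array, 35.1% to 41.9% of values lay within 0.005 of the floor, and array medians were 2.41 to 2.52. Of the probe sets, 34945 had 1 symbol (34741 matched in RefSeq, GRCm38.p6), and 932 had several and were left out.

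The deposited log2 values were analysed by limma 3.58.1 (lmFit, eBayes; R 4.3.3), with a mean per group, all 14 arrays in 1 fit, and 8 residual degrees of freedom, using two-sided tests and Benjamini-Hochberg adjustment over 18193 genes. The script was tested on simulated data. Single probe sets were tested as an alternative chosen after seeing the data.

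The members and lists were chosen with earlier results of these data known. Every member that was on is named, with values per array for those called and for 10 fixed genes. Of a list, up to 5 called genes with the largest change are named per comparison. Slc7a6os and Slc36a1os, opposite-strand genes, are no members, and Slc38a8 and Slc38a11 were not analysed here. A planned comparison of protein sequences was not made.

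Replicate pairing was checked by the correlation of same-numbered arrays' deviations. It was 0.155, 0.331 and 0.565 for the engrafted arrays, whose numbers were taken as pairs, and 0.00348, -0.0408 and 0.0962 without transplant, where they are numbers alone. Of unlike-numbered engrafted arrays, Pax5KO 1 with WT 2 gave 0.41 and Pax5KO 2 with WT 1 gave 0.216, and the rest gave -0.507 to -0.254. The check thus does not settle whether the engrafted numbers are pairs. PreB arrays are titled 2 and 3 but described as 1 and 2, and the value of 0.0962 and the block use the description numbers. By title, PreB 2 with ProB 2 gave -0.0962. With 2 arrays a group the deviations mirror each other, so these 2 values can differ in sign alone.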

Additional observations from a re-analysis of the deposited data

How the results depend on the processing

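The number of arrays and the floor limit these results. Over 824 alternatives of 64 single transporter results, 706 kept their direction and side of the threshold, 43 lost the call, 33 gained it and 42 changed sign. The sign changes fell on 20 results, none of them called before or after. The calls of Slc1a5 between the engrafted groups and of Slc38a2 from ProB to PreB held in every alternative run. With array weights the transporters called were 7 between the engrafted groups, 0 between the CLP groups, 0 from Ly6D+ CLP to ProB and 2 from ProB to PreB. Of all 18193 genes, array weights called 3065, 102, 368 and 1451 in these comparisons. With only the 2 groups compared in the fit the transporters called were 0 between the CLP groups, 0 from Ly6D+ CLP to ProB and 1 from ProB to PreB. For all genes these counts were 1, 3 and 487. At an unadjusted p under 0.05 the limma fit of all groups had 2 and 8 transporters in the first 2 of these comparisons. The like counts of all genes were 1809 and 3232. With the mean of a gene's probe sets, 1 was called from Ly6D+ CLP to ProB and 8 from ProB to PreB (1297 and 2243 of all genes). Without dim genes 4 were called from Ly6D+ CLP to ProB, against 1686 of the 8713 genes kept. Without both engrafted arrays numbered 3, 5 were called between those groups, against 914 of all genes. With the replicate block, 2 were called between the CLP groups, Slc7a1 and Slc38a1, against 169 of all genes. Leaving out 1 array at a time, the counts ran from 2 to 5 between the engrafted groups, 1 to 2 between the CLP groups, 1 to 5 from Ly6D+ CLP to ProB, 3 to 8 from ProB to PreB and 5 to 11 across the 6 groups. The cause was not tested. Equal array medians moved the median of all genes by 0.311 from Ly6D+ CLP to ProB and quantile normalization by 0.148. The pathway list counts stayed within 1.5 times in 174 of 260 alternatives. The uncalled differences that changed sign follow. Between the engrafted groups Slc38a2 gave -0.11 with averaged probe sets, -0.025 after equal array medians, -0.072 with array weights and -0.18 without both arrays numbered 3. With a term for high Xist Slc38a10 gave -0.31 and Slc38a6 0.43. In the CLP comparison averaged probe sets gave -0.078 for Slc43a2 and 1.07 for Slc7a6, and equal array medians gave -0.069 for Slc7a3. From Ly6D+ CLP to ProB equal array medians and quantile normalization gave 0.27 and 0.37 for Slc38a9 and 0.17 and 0.22 for Slc7a5, equal array medians gave 0.28 for Slc7a3, and averaged probe sets gave -0.30 for Slc7a6. Leaving out 1 array at a time, the range between the engrafted groups was -0.25 to 0.36 for Slc38a2 and -0.22 to 0.11 for Slc38a6. For the CLP groups it was -0.021 to 1.14 for Slc1a4, -0.59 to 0.45 for Slc1a5, -0.47 to 1.28 for Slc38a6, -1.22 to 2.61 for Slc38a9 and -0.42 to 0.10 for Slc3a2. There it was also -0.15 to 0.60 for Slc43a2, -0.090 to 0.68 for Slc43a3 and -0.31 to 0.24 for Slc7a6. From Ly6D+ CLP to ProB it was -1.02 to 0.40 for Slc38a10, -1.10 to 1.02 for Slc38a9 and -0.24 to 0.63 for Slc7a1, and from ProB to PreB -0.33 to 1.09 for Slc38a10 and -0.17 to 0.015 for Slc3a2.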
